A study of Mus musculus with 36 samples.

Results

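The genes described here encode DOT1L and 9 proteins that work with it or beside it. They were listed by name, as genes of known complexes, with no threshold on a measured value: *Dot1l*, *Mllt10*, *Mllt6*, *Mllt3* and *Mllt1* of the DOT1L complex, *Aff1*, *Aff4* and *Ell2* of the super elongation complex, and *Kmt2a* and *Men1* of the MLL1-menin complex. These 10 genes were found among 50600 genes listed for the sorted Day 3 cells and among 29267 listed for the other cells, and all 10 passed the filter on low counts in each comparison. Their RNA was followed in 11 bulk RNA-seq libraries of a study of the BMP4 induced primed to naive transition (BiPNT) of mouse cells. The transition starts from EpiSCs, epiblast stem cells in the primed state of pluripotency. All 10 are protein-coding genes of GENCODE on GRCm38, from *Men1* (ENSMUSG00000024947), which spans 5.9 kb at chr19:6334979-6340891 on the plus strand, to *Mllt3* (ENSMUSG00000028496), which spans 263.4 kb at chr4:87769925-88033364 on the minus strand. *Dot1l* (ENSMUSG00000061589) lies at chr10:80755206-80795461, *Mllt6* (ENSMUSG00000038437) at chr11:97663414-97685463 and *Ell2* (ENSMUSG00000001542) at chr13:75706757-75772364, all on the plus strand.

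The 3 EpiSC libraries are from cells kept in Activin A, bFGF and XAV939, with no inhibitor of DOT1L. The 2 BV+SC+ Day 6 libraries are cells sorted for the reporters *Blimp1*-mVenus and *Stella*-ECFP, after 3 days in a medium with BMP4, EPZ5676 (a DOT1L inhibitor) and EPZ6438 (an EZH2 inhibitor) and 3 further days in another medium. The protocol that both share gives this medium as N2B27 with MEK and GSK3 inhibitors and vitamin C, and the methods add LIF, but the labels name 2iJi for replicate 1 and GK15 for replicate 2. The medium and the replicate therefore cannot be told apart. The paper derived EpiSCs both from embryos and from embryonic stem cells that carry these reporters. The titles of the EpiSC libraries do not name the line, so these EpiSCs may not be the parents of the BV+SC+ cells. The c-Kit+ and c-Kit- Day 3 libraries, 2 of each, are the fractions of BiPNT cultures sorted at Day 3 for the surface receptor c-Kit, and the Stage 1 medium of the methods holds BMP4, EPZ6438 and a DOT1L inhibitor for both fractions. The remaining libraries, 1 each, are unsorted Day 3 cells with or without the DOT1L inhibitor SGC0946 (+SGC and -SGC). Nothing in the labels says that replicates came from separate cultures, so p-values measure the spread between these libraries.

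DOT1L is the enzyme that methylates lysine 79 of histone H3 within transcribed genes. AF10 and AF17, encoded by *Mllt10* and *Mllt6*, are PHD-finger proteins that bind DOT1L, and AF9 and ENL, encoded by *Mllt3* and *Mllt1*, are YEATS-domain readers of acylated histones that are shared between DOT1L and the super elongation complex. In the latter, AFF proteins form the scaffold, ELL proteins raise the rate of RNA polymerase II, and the kinase P-TEFb releases paused polymerase. MLL1, encoded by *Kmt2a*, methylates lysine 4 of histone H3 with menin, encoded by *Men1*, as a cofactor. In leukaemias, *KMT2A* is fused to partner genes that include the human counterparts of *Mllt10*, *Mllt6*, *Mllt3*, *Mllt1*, *Aff1* and *Aff4*.

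Sequence before the annotated start is shown for the members that carried the largest or the most repeated differences. Upstream bases were taken from RefSeq on the build GRCm38.p6, which matched all 10 genes with 16 starts. *Mllt6* and *Men1* are shown over 250 bases before their start, at chr11:97663162-97663411 and chr19:6334729-6334978, and *Ell2* over 30 bases from 209 bases before its RefSeq start, at chr13:75707275-75707304, where 1 GENCODE transcript already begins further upstream. All 3 lie on the plus strand, and capitals mark matches on either strand to 5 motifs: the cAMP response element TGACGTCA, the Sp1-type box GGGCGG, the nuclear factor Y box CCAAT, the site AGATAA of zinc-finger factors named after it, and the core promoter box TATAAA.

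Ell2: aagacgagacaTGACGTCAGATAAgattaa
Mllt6: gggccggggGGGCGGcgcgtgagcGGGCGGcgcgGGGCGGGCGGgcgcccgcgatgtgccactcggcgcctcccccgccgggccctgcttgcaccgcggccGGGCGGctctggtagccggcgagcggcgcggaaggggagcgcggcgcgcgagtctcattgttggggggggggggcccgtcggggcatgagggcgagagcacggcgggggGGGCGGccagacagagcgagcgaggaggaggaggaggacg
Men1: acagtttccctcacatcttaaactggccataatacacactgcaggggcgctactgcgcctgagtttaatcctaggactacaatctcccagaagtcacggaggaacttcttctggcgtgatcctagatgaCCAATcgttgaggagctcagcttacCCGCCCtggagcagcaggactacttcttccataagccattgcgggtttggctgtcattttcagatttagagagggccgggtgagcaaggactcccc

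The 250 bases before the start of *Ell2* hold TGACGTCA and AGATAA, which overlap by their shared A. TGACGTCA was present before 1.55% of 32851 RefSeq starts, and *Ell2* was the only member with it. AGATAA stood before 9.99% of the starts and, among the members, before *Ell2* alone. Members are counted with a match before any of their 16 starts, while the shares are per start, so the 2 are unlike measures. GGGCGG was found at 9 members and at 32.7% of all starts. *Mllt6* held 6 matches in a sequence of 81.6% GC, beside a median of 52.4% GC over all starts. *Men1* held 1 GGGCGG and 1 CCAAT in 52.0% GC. CCAAT was found at 5 members and 33.8% of all starts, and TATAAA at none of the members and 12.4% of all starts. These matches describe the letters and were not tested as binding sites.

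The libraries of the c-Kit sort held between 1726038 and 1841442 expected counts. EpiSCs had 2444211 to 3070115, the +SGC and -SGC libraries 4776143 and 4577685, and the BV+SC+ libraries, the deepest, 14778809 and 18099059. The labels describe mRNA for the sorted Day 3 libraries and total RNA without ribosomal RNA for the others, while the methods name an mRNA kit with no such distinction, and the 2 sets of files list different genes, so levels are set side by side across them without a test. Levels are in TPM, the length-normalised measure of RSEM, which corrects for transcript length. *Kit*, the gene of the sorted receptor, was 38.8-fold higher in c-Kit+ than in c-Kit- cells (adjusted p = 5.82e-07). *Prdm1*, the gene of BLIMP1, was 188-fold higher in BV+SC+ cells than in EpiSCs (adjusted p = 1.42e-06). These p-values, and all below, are from edgeR's quasi-likelihood test with Benjamini-Hochberg adjustment over all genes tested.

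*Dot1l* was the steadiest of the members in TPM. It had 83.5, 63.8 and 59.5 TPM in the EpiSC libraries, 66.2 and 65.5 in BV+SC+ cells, 77.2 and 78.1 in the c-Kit+ fraction, 77.9 and 79.8 in the c-Kit- fraction, and 66.8 and 62.1 with and without SGC0946. The highest library was 1.4-fold above the lowest, and the EpiSC libraries alone covered that whole range. The gene ranked between the first and the third place among the members in every library. By mean level the order was c-Kit-, c-Kit+, EpiSC, +SGC, BV+SC+ and -SGC, and no neighbours in it were separated beyond the spread of their libraries, or of the 3 EpiSC libraries.

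*Ell2* and *Mllt3* spanned the widest ranges, 24.0-fold and 23.3-fold between the highest and the lowest library. *Kmt2a* spanned 1.84-fold, and the remaining members between 2.55-fold for *Mllt1* and 4.78-fold for *Men1*. *Aff1* and *Mllt3* were at the bottom of the order in EpiSCs and in BV+SC+ cells, at 6.99 TPM or less in each of those libraries. *Men1* was the most abundant member in both c-Kit- libraries, at 158 and 148 TPM.

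**Figure D1:**
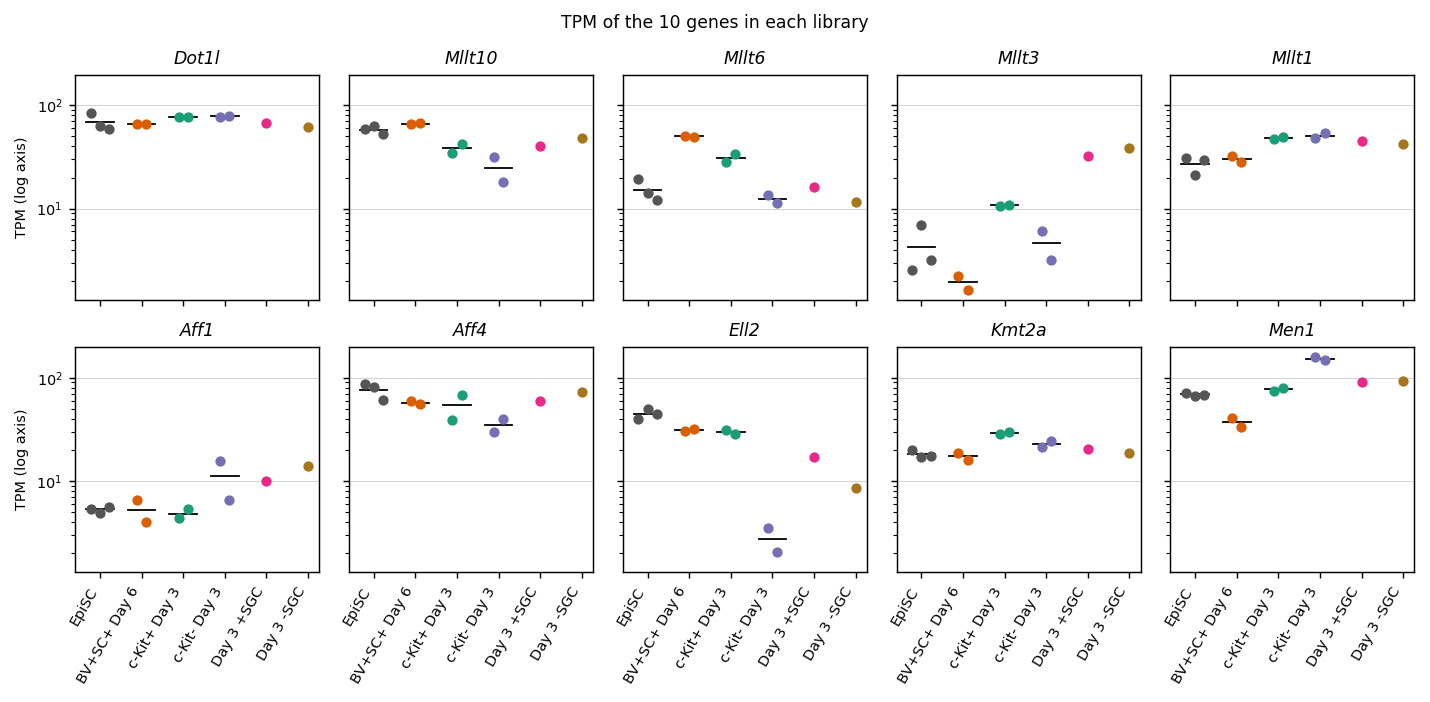
TPM (log axis) of each of the 10 genes by group, 1 point per library, with a black line at the mean of groups with replicates. *Dot1l* stayed between 59.45 and 83.51 TPM, while *Ell2* went from 2.05 TPM in a c-Kit- library to 49.28 TPM in an EpiSC library.

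The comparison of c-Kit+ with c-Kit- cells asked how the genes differ between the naive and the trophoblast-like fraction of Day 3 cultures. *Ell2*, *Mllt6* and *Mllt10* were higher in c-Kit+ cells, *Men1* and *Aff1* were lower, and *Dot1l* itself differed by 0.04 on the log2 scale. In all, 5 of the 10 members had an adjusted p-value under 0.05, 3 of them higher and 2 lower, beside 41.5% of the 11018 genes tested, 20.2% higher and 21.3% lower. At the threshold of the methods, P under 0.05 and a fold change over 2, *Ell2* and *Mllt6* remained, 2 of 10 members beside 24.4% of all genes. The median log2 fold change of the members was 0.22, and that of all genes 0.0276.

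*Ell2*, the elongation factor subunit, was counted 108 and 107 times in c-Kit+ replicates 1 and 2 but 12 and 7 times in c-Kit- replicates 1 and 2, which are 30.9 and 28.5 TPM against 3.47 and 2.05 TPM. The groups did not overlap, and each c-Kit+ library was several times above each c-Kit- library. CPM, counts divided by the TMM-scaled size of their library, were 61.7 ± 3.01 and 5.19 ± 1.83 (mean ± SD, n = 2 each). The log2 fold change was 3.55 (SE 0.290, 11.7-fold, adjusted p = 2.05e-05), and leaving out any library kept it between 3.20 and 3.95. *Ell2* passed the filter on low counts only through the c-Kit+ libraries, where it was high, and was not tested where every library had to hold 10 counts. With no filter its log2 fold change was 3.52 (adjusted p = 2.57e-08). Where a fit leaves a group with 1 library, here and below, that library is assumed to vary like those of the other group.

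*Mllt6*, the AF17 gene, had 180 and 213 counts in c-Kit+ cells and 61 and 78 in c-Kit- cells. Both c-Kit+ libraries, at 28.5 and 33.4 TPM, lay above both c-Kit- libraries, at 13.6 and 11.3 TPM. It was 2.95-fold higher in c-Kit+ cells (log2 fold change 1.56, SE 0.181, adjusted p = 0.000155). Its paralog *Mllt10*, the AF10 gene, had 34.3 and 42.5 TPM in c-Kit+ cells and 31.8 and 18.1 TPM in c-Kit- cells, and was 1.86-fold higher (log2 fold change 0.89, SE 0.175, adjusted p = 0.00317). RSEM gave *Mllt10* effective lengths between 3102 and 4563 bases in these libraries, and with these lengths as offsets its adjusted p was 0.0556. *Mllt10* also shares 14.8% of its transcript with *Dnajc1*, a gene on the opposite strand, so its values are uncertain.

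*Men1*, the menin gene, fell in c-Kit+ cells. Its level was 73.8 and 80.3 TPM in the c-Kit+ libraries and 158 and 148 TPM in the c-Kit- libraries, with no overlap and little spread within either group. The log2 fold change was -0.78 (SE 0.117, 1.71-fold lower, adjusted p = 0.000727). *Kmt2a*, the gene of the methyltransferase that menin binds, had, by library size alone, 166 and 185 CPM in c-Kit+ cells and 152 and 171 in c-Kit- cells, groups that overlapped (log2 fold change 0.17, SE 0.125, adjusted p = 0.314). Its effective length, as estimated by RSEM, was between 10365 and 13436 bases across the 4 libraries, and with these lengths as offsets *Kmt2a* was called higher at 0.48 (adjusted p = 0.0282).

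*Aff1*, the smaller of the AFF scaffold genes by level, had 35 and 38 counts in c-Kit+ cells and 89 and 52 in c-Kit- cells. The fall of 0.88 on the log2 scale (SE 0.289, adjusted p = 0.0355) rested on the high library c-Kit- replicate 1. Without that library the log2 fold change was -0.48 and the adjusted p 0.259, and the call was also lost without either c-Kit+ library and with DESeq2 (adjusted p = 0.203). Its effective length ran from 5917 to 8243 bases, and with lengths as offsets *Aff1* was not called either (log2 fold change -1.03, adjusted p = 0.0853). *Aff4*, the more abundant scaffold gene, had CPM of 215 ± 17.2 in c-Kit+ and 177 ± 30.1 in c-Kit- cells (n = 2 each), with a log2 fold change of 0.28 (SE 0.138, adjusted p = 0.134). The effective length of *Aff4* ran from 5041 to 10022 bases, and with lengths as offsets it was 0.75 (adjusted p = 0.0564). Without c-Kit- replicate 2 the log2 fold change of *Aff4* was 0.42, in a fit with 1 c-Kit- library whose spread comes from the c-Kit+ libraries.

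Among the YEATS readers, *Mllt1* had 93.9 and 99.9 CPM in c-Kit+ cells and 90.3 and 101 in c-Kit- cells, by library size alone, with the c-Kit+ values inside the range of the others (log2 fold change 0.06, SE 0.141, adjusted p = 0.77). *Mllt3* had 27 and 21 counts against 13 and 18, which do not overlap, and a log2 fold change of 0.69 (SE 0.402, adjusted p = 0.195). Its effective length ran from 1838 to 5989 bases, and with lengths as offsets it was 1.47 (adjusted p = 0.0396). On the same scale *Dot1l* had 224 and 236 CPM in c-Kit+ cells and 241 and 220 in c-Kit- cells (log2 fold change 0.04, SE 0.107, adjusted p = 0.81), and the groups overlapped.

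Markers of cell types moved with this sort. Of the trophoblast markers, 8 of 9 tested were lower and 1 was higher in c-Kit+ cells, beside 21.3% and 20.2% of all genes. The summed TPM of the 10 markers was 1470 to 1710 in c-Kit+ and 6580 to 7250 in c-Kit- cells. Of the germ cell and naive markers 7 of 8 tested were higher, beside 20.2% of all genes, with sums of 786 to 933 and 290 to 322 TPM. *Kit*, the gene of the sorted receptor, is among the 7, so the sort fixed its call. *Nanos3*, *Prdm14* and *Zfp42* had no count in c-Kit- cells, where *Nanog*, *Dppa3* and *Prdm1* had means of 0.27, 0.549 and 2.22 CPM. *Esrrb* and *Kit* had 6.83 ± 2.57 and 6.88 ± 2.86 CPM there (mean ± SD, n = 2). *Nanos3*, *Nanog*, *Dppa3*, *Prdm1*, *Esrrb* and *Kit* thus passed the filter on low counts only through c-Kit+ cells. Fibroblast markers were lower at 4 of 4 tested genes, beside 21.3% of all genes, with sums of 44.1 to 56.5 and 141 to 169 TPM. The fibroblast markers *Pdgfra* and *Thy1* and the trophoblast marker *Plac1* had 1.72 ± 0.0727, 5.23 ± 3.46 and 4.92 ± 2.24 CPM in c-Kit+ cells. They passed the filter only through c-Kit- cells. The 5 mesoderm markers summed to 171 to 207 and 3.48 to 3.99 TPM, with 2 of 2 tested higher, beside 20.2% of all genes. Those were *T* and *Eomes*, with means of 169 and 18.5 TPM in c-Kit+ cells, so the sum was mostly *T*. In c-Kit- cells their means were 0.278 and 3.29 CPM, so both passed the filter on low counts only through c-Kit+ cells. The paper lists *T* among genes of a mesoderm-like germ cell precursor. In c-Kit- cells 4 of the markers, *Mesp1*, *Mixl1*, *T* and *Tbx6*, had at most 3 counts per library, and in c-Kit+ cells so did *Mesp1* and *Mixl1*. The part of these cell types in the differences of the members was not tested. In bulk RNA, fewer cells that express a gene and less RNA per cell cannot be told apart.

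**Figure D2:**
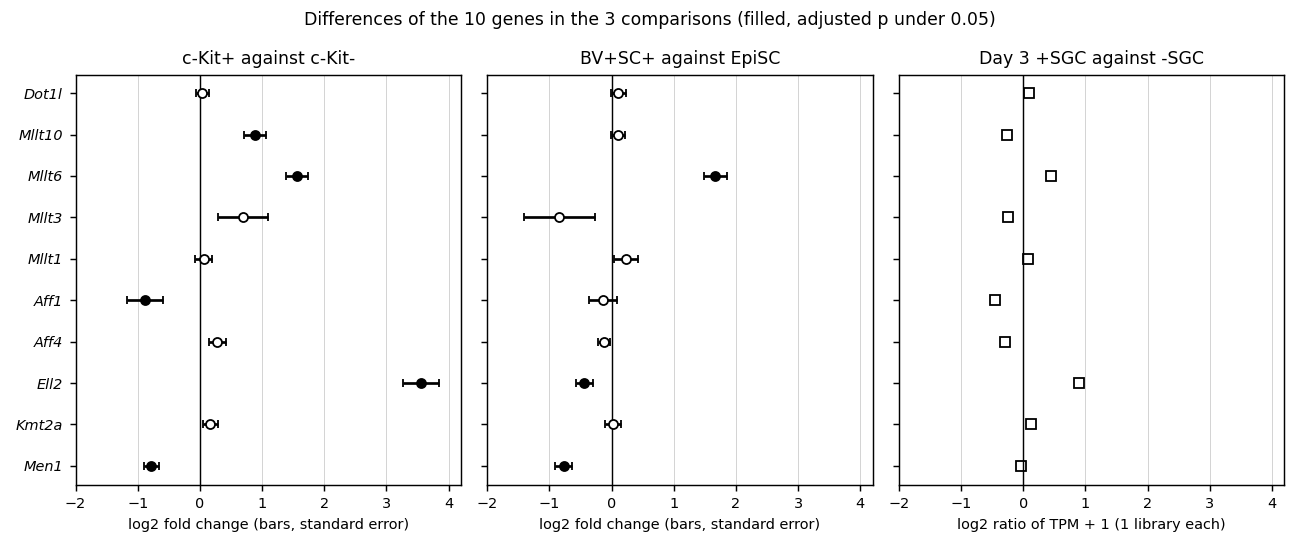
Differences of the 10 genes. The left and middle panels give edgeR's log2 fold change with its standard error, filled where the adjusted p-value was under 0.05, and the right panel gives the log2 ratio of TPM + 1 between the 2 unsorted Day 3 libraries, which has no replicate. *Mllt6* was higher and *Men1* lower in both tested comparisons, and *Ell2* was higher in c-Kit+ cells and lower in BV+SC+ cells.

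The comparison of BV+SC+ Day 6 cells with EpiSCs asked how the germ cell-like cells differ from cells of the primed state in which the transition starts. *Mllt6* was higher in BV+SC+ cells, *Men1* and *Ell2* were lower, and the other members, *Dot1l* among them, did not pass the test. These are 3 of 10 members, 1 higher and 2 lower, beside 56.0% of the 11792 genes tested, 29.6% higher and 26.5% lower. *Mllt6* alone passed the threshold of the methods, beside 35.0% of all genes. The median log2 fold change was -0.05 for the members and 0.0538 for all genes.

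*Mllt6* had 50.6 and 49.4 TPM in the BV+SC+ libraries and 19.3, 14.1 and 12.2 TPM in EpiSCs. The lowest BV+SC+ library lay well above the highest EpiSC library. It was 3.19-fold higher (log2 fold change 1.67, SE 0.188, adjusted p = 0.000232), and between 1.54 and 1.90 with any library left out. *Mllt10* had 66.2 and 67.0 TPM beside 59.0, 62.8 and 52.5 TPM, a log2 fold change of 0.10 (SE 0.111, adjusted p = 0.49).

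*Men1* had 41.1 and 33.1 TPM in BV+SC+ cells, below the 70.6, 67.2 and 68.8 TPM of EpiSCs. It was 1.70-fold lower (log2 fold change -0.77, SE 0.136, adjusted p = 0.00201). *Kmt2a* had CPM of 168 ± 13.6 (n = 2) and 166 ± 16.9 (n = 3), a log2 fold change of 0.02 (SE 0.127, adjusted p = 0.897). The menin gene thus differed in RNA level in both comparisons by more than the spread between libraries, in TPM and in CPM. The *Kmt2a* groups overlapped in CPM in both. In TPM, however, its c-Kit+ libraries, at 28.29 and 29.55, lay above its c-Kit- libraries, at 21.25 and 24.57.

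*Ell2* had 30.2 and 32.0 TPM in BV+SC+ cells and 40.2, 49.3 and 44.8 TPM in EpiSCs. No BV+SC+ library reached the lowest EpiSC library. The log2 fold change was -0.44 (SE 0.137, 1.36-fold lower, adjusted p = 0.0249). The call was lost without EpiSC replicate 2 (adjusted p = 0.097), without EpiSC replicate 3 (0.0803) and with the replicate number as a block (0.0994).

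*Mllt3* was low in both groups, with 76 and 30 counts in the BV+SC+ libraries and 13, 26 and 12 in the EpiSC libraries, which are shallower. By library size alone the groups overlapped at 5.14 and 1.66 CPM against 4.23, 8.75 and 4.91 CPM (log2 fold change -0.84, SE 0.574, adjusted p = 0.244). Without BV+SC+ replicate 1 it was called lower, at -1.81 (adjusted p = 0.0102), in a fit with 1 BV+SC+ library of 30 counts whose spread comes from the EpiSC libraries. The other members not called were *Mllt1* at 0.23 (SE 0.188), *Dot1l* at 0.11 (SE 0.114), *Aff4* at -0.12 (SE 0.0984) and *Aff1* at -0.14 (SE 0.230) on the log2 scale.

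Here too the markers moved with the groups. All 10 germ cell and naive markers were higher in BV+SC+ cells, beside 29.6% of all genes. Their sums were 2660 to 2710 and 160 to 202 TPM. *Prdm1* and *Dppa3* among them are the genes of the sorted reporters, so the sort fixed their rise. *Dppa3* alone had a mean of 1180 TPM in BV+SC+ cells. *Dppa3*, *Nanos3* and *Zfp42* had no count in EpiSCs and passed the filter on low counts only through BV+SC+ cells. *Prdm1*, *Prdm14*, *Tfap2c* and *Esrrb* had EpiSC means of 0.938, 0.11, 1.08 and 1.41 CPM, so they too passed only through BV+SC+ cells. Most of these calls could therefore only be of higher genes. Of the primed markers 4 of 5 were lower, beside 26.5% of all genes, with sums of 38.0 to 112 and 1250 to 1320 TPM. *Fgf5* and *Pou3f1* among them, at 3.11 ± 3.55 and 2.08 ± 1.72 CPM in BV+SC+ cells (mean ± SD, n = 2), passed the filter only through EpiSCs. The trophoblast markers summed to 78.6 to 213 and 45.0 to 67.4 TPM, with 4 of 5 tested higher, beside 29.6% of all genes. *Gata2* among them had a mean of 0.335 CPM in EpiSCs and passed the filter only through BV+SC+ cells. *Elf5* had at most 3 counts in every library of both groups. Their part in the differences of the members was not tested.

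The unsorted Day 3 libraries with and without SGC0946 show what the members did when DOT1L was inhibited, in 1 library per condition, so there is no test. The -SGC cells are described as Day 3 cells without DOT1L inhibitor, although their labels carry the induction protocol of the BV+SC+ cells, which names EPZ5676. None of the 10 members changed past 2-fold in TPM + 1, beside 9.78% of the 14038 genes with TPM over 1 in either library, 6.33% higher and 3.45% lower. The median log2 ratio was 0.03 over the members and 0.00714 over all genes. *Dot1l*, the gene of the inhibited enzyme, had 66.8 TPM with and 62.1 TPM without the inhibitor, from 884 and 840 counts. The ratio of its CPM was 1.01, with an exact 95% interval of 0.917 to 1.11 that covers counting error only, as do the intervals below.

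*Ell2* came closest to the limit, with 17.0 TPM with and 8.59 TPM without SGC0946, a log2 ratio of 0.90. It rests on 155 counts (exact 95% Poisson interval 132 to 181) and 74 counts (58.1 to 92.9), and the CPM ratio was 2.01 (interval 1.51 to 2.69). *Mllt6* had 16.2 and 11.6 TPM, a log2 ratio of 0.44 and a CPM ratio of 1.42 (1.19 to 1.71). Both members were higher with the inhibitor by more than counting error, and the spread between cultures is unknown here.

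*Aff1*, *Mllt10* and *Mllt3* were lower with SGC0946. Their CPM ratios were 0.787 (interval 0.654 to 0.946), 0.858 (0.745 to 0.987) and 0.806 (0.677 to 0.959). *Men1* had 90.5 and 92.2 TPM, a CPM ratio of 0.985 (0.880 to 1.10), and the intervals of *Mllt1* (0.935 to 1.25) and *Aff4* (0.889 to 1.04) also held 1. That of *Kmt2a* was 1.02 to 1.25. The marker sums in the same libraries were 512 TPM with and 198 TPM without SGC0946 for germ cell and naive markers, and 2500 and 3070 TPM for trophoblast markers. Mesoderm markers summed to 19.7 and 3.9 TPM, with 2 of 2 higher past 2-fold, beside 6.33% of all genes. Those were *T*, from 68 and 9 counts, and *Eomes*, from 20 and 2 counts, the latter under the floor of 3 counts. Endoderm markers summed to 10.3 and 22.8 TPM, with 2 of 3 lower past 2-fold, beside 3.45% of all genes. The fall of the endoderm sum was mostly *Gata6*, at 6.30 and 17.8 TPM from 50 and 133 counts. *Gata4*, the other lower gene, had 1 and 9 counts, and *Sox17* had 3.61 and 3.38 TPM. The paper lists *Gata6* among genes lowered by the inhibitor. Whether the cultures held fewer endoderm cells was not tested. The part of cell types in the ratios of the members was not tested either.

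The same Day 3 libraries held *Mllt3* at 32.0 and 38.2 TPM, above every other library. The sorted fractions of Day 3 cultures had 10.6 and 10.8 TPM (c-Kit+) and 6.04 and 3.14 TPM (c-Kit-), so the unsorted cells did not lie between them. By counts the order was the same, 50.9 and 63.1 CPM in unsorted cells against at most 15.6 CPM in a sorted library. *Men1*, by contrast, lay between the sorted fractions at 90.5 and 92.2 TPM, and so did *Ell2*. By their labels the sets of libraries differ in RNA preparation, and culture and preparation cannot be told apart in this comparison.

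Paralog ratios within a library do not depend on its depth. *Mllt6* was at 0.763 and 0.738 of *Mllt10* in BV+SC+ cells and at 0.832 and 0.787 in c-Kit+ cells, and between 0.224 and 0.327 in EpiSCs. The c-Kit- libraries stood between, at 0.427 and 0.627, and the unsorted cells were at 0.403 with and 0.240 without SGC0946. In every library *Mllt6* stayed below *Mllt10*.

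*Ell2* exceeded its paralog *Ell* in EpiSCs (ratios 1.71 to 2.44), BV+SC+ cells (1.57 and 1.81) and c-Kit+ cells (1.49 and 1.76). It was below *Ell* in c-Kit- cells (0.124 and 0.0683) and in unsorted cells with (0.705) and without SGC0946 (0.326). *Ell* had 18.5 ± 3.28 TPM in c-Kit+ and 28.9 ± 1.49 TPM in c-Kit- cells (n = 2 each; log2 fold change -0.51, SE 0.215, adjusted p = 0.0854). The ELL gene with the higher TPM was thus *Ell2* in the c-Kit+ fraction and *Ell* in the c-Kit- fraction.

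*Mllt3* stayed below *Mllt1* everywhere, at 0.711 and 0.902 in the unsorted Day 3 libraries and at 0.331 or less in all the others. *Aff1* stayed below *Aff4*, from 0.0602 in an EpiSC library to 0.518 in c-Kit- replicate 1. The other c-Kit- library was at 0.164, so the c-Kit- replicates were far apart in this ratio.

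**Figure D3:**
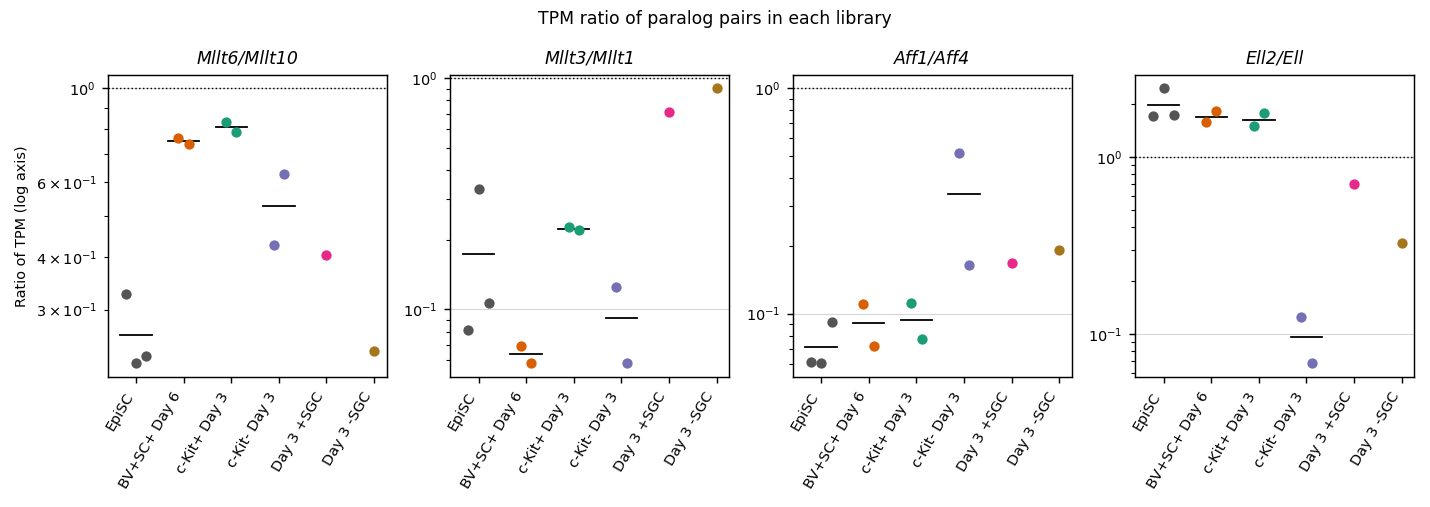
Ratio of TPM (log axis) between paralogs in each library, 1 point per library, with a black line at the mean of groups with replicates and a dotted line at 1. *Ell2* was above *Ell* in EpiSCs, BV+SC+ and c-Kit+ cells and below it in c-Kit- and unsorted Day 3 cells.

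The genes around the members were taken as 57 genes in 7 lists. Of the other subunits of the super elongation complex and P-TEFb, 1 of 8 tested was higher in c-Kit+ cells and none lower, beside 20.2% and 21.3% of all genes. It was *Aff3*, a further AFF scaffold gene, with 24.9 ± 0.975 and 2.73 ± 0.718 CPM (n = 2 each), 8.89-fold higher (adjusted p = 0.000333). It had 41 and 46 counts in c-Kit+ and 6 and 4 in c-Kit- cells, so it too passed the filter on low counts only through the group where it was high. In BV+SC+ cells 2 of 9 were higher, beside 29.6% of all genes, the P-TEFb kinase *Cdk9* (log2 fold change 0.53, adjusted p = 0.0104) and its cyclin *Ccnt2* (0.36, adjusted p = 0.0279), and the call of *Ccnt2* was lost when any EpiSC library was left out, and that of *Cdk9* without EpiSC replicate 2 (adjusted p = 0.05).

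Of the pausing factors, 2 of 9 tested were lower in c-Kit+ cells, beside 21.3% of all genes, a share near the background. They were *Mepce* (log2 fold change -0.61, adjusted p = 0.0211) and *Hexim1* (-0.55, adjusted p = 0.00959), which belong to the 7SK particle that holds P-TEFb inactive, and DESeq2 called neither. In BV+SC+ cells *Hexim1* was 1.87-fold higher (adjusted p = 0.00216). Of the 10 pausing factors tested there, 2 were higher and 1 lower, beside 29.6% and 26.5% of all genes. The others called were *Nelfa* (log2 fold change 0.76, adjusted p = 0.00196) and *Nelfe* (-0.52, adjusted p = 0.0171), subunits of the pausing complex NELF. The call of *Nelfe* was lost without EpiSC replicate 1 or 3 (adjusted p = 0.0631 and 0.0617) and with the replicate block (0.0567).

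The MLL and COMPASS list, the subunits of the methyltransferases of histone H3 lysine 4, had 7 higher and 2 lower genes of 16 in c-Kit+ cells, beside 20.2% and 21.3% of all genes, and 5 higher and 2 lower in BV+SC+ cells, beside 29.6% and 26.5%. DESeq2 called 3 of the 16, *Psip1*, *Ash2l* and *Kdm6a*, in c-Kit+ cells. The median log2 fold changes of the list were 0.16 and 0.13, beside 0.0276 and 0.0538 over all genes. *Ash2l*, a core subunit, was 1.82-fold higher in c-Kit+ cells (adjusted p = 0.000871) and 3.16-fold higher in BV+SC+ cells (adjusted p = 1.87e-05). *Psip1*, the gene of the protein LEDGF that tethers MLL1 and menin to chromatin, was 2.06-fold higher in c-Kit+ cells (adjusted p = 0.000498), and shares 9.8% of its transcript with *Snapc3*. *Kdm6a*, an H3K27 demethylase of the MLL3 and MLL4 complexes, was 1.80-fold higher in c-Kit+ cells. *Hcfc2* was 2.90-fold lower in c-Kit+ and 4.07-fold higher in BV+SC+ cells, and in both comparisons it passed the filter on low counts only through the group where it was high. Its call in c-Kit+ cells was lost with DESeq2 and without any of the 4 libraries. *Kmt2c*, the MLL3 gene, and *Rbbp5*, a core subunit, rose 2.68-fold and 2.04-fold at Day 6 in BV+SC+ cells. *Kmt2b*, the closest paralog of *Kmt2a*, had log2 fold changes of 0.10 and 0.12 and was not called.

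Of the 6 PAF1 complex genes, which couple elongating polymerase to histone modification, 1 fell in c-Kit+ cells and 2 rose in BV+SC+ cells, beside 21.3% and 29.6% of all genes. *Paf1* was 1.69-fold lower in c-Kit+ cells (adjusted p = 0.000973), and *Ctr9* and *Rtf1* were 2.2-fold and 1.57-fold higher in Day 6 BV+SC+ cells. The median log2 fold change of the list in c-Kit+ cells was 0.23. *Cdc73*, *Rtf1* and *Wdr61* were higher there at 0.52, 0.35 and 0.38, with an unadjusted p under 0.05, and were not called. Monoubiquitination of histone H2B precedes DOT1L activity, and of its 6 genes none was called in c-Kit+ cells. At an unadjusted p under 0.05 there were 0 as well, and DESeq2 called 0. In BV+SC+ cells the ligase gene *Rnf40* and the conjugating enzymes *Ube2a* and *Ube2b* were 1.88-fold, 2.32-fold and 1.95-fold higher, and the deubiquitinase *Usp22* was 1.43-fold lower, 3 and 1 of 6 beside 29.6% and 26.5% of all genes. Of the other YEATS readers and PHD-zipper paralogs, *Yeats4* (1.83-fold), *Phf14* (1.52-fold) and *Yeats2* (1.49-fold) were higher in c-Kit+ cells, 3 of 4 beside 20.2% of all genes, of which DESeq2 called *Yeats4* only. In BV+SC+ cells *Yeats2* (1.78-fold) and *Brpf1* (1.48-fold) were higher, 2 of 4 beside 29.6%, and the call of *Brpf1* was lost without EpiSC replicate 2 or 3.

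**Figure D4:**
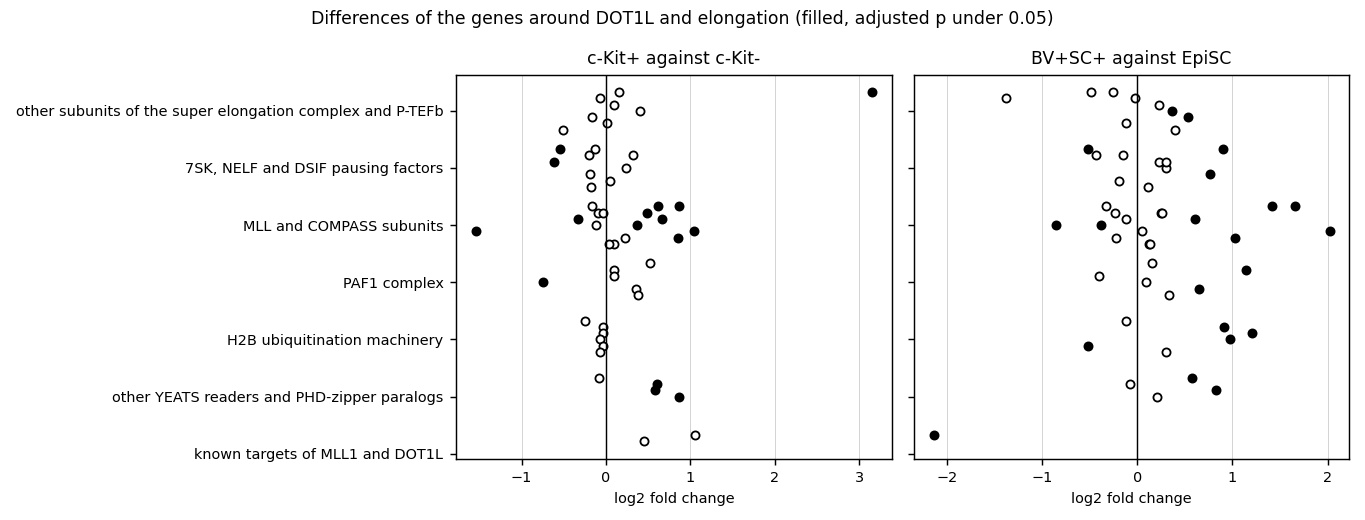
edgeR's log2 fold change of each tested gene of the 7 lists, filled where the adjusted p-value was under 0.05, with points of a list offset vertically for legibility. In the MLL and COMPASS list 7 genes were called higher and 2 lower in c-Kit+ cells, and 5 higher and 2 lower in BV+SC+ cells.

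The known targets of MLL1 and DOT1L differed in the SGC0946 libraries, where 3 of 5 were lower past 2-fold, beside 3.45% of all genes. *Hoxa9* had 29.7 TPM with and 167 TPM without the inhibitor, *Hoxa10* 9.28 and 47.7 TPM, and *Hoxa7* 14.3 and 46.8 TPM. Their CPM ratios were 0.224 (interval 0.187 to 0.268), 0.212 (0.151 to 0.293) and 0.393 (0.266 to 0.571), while the members were between 0.787 and 2.01. *Hoxa7* shares 28.8% of its transcript with *Hoxaas3*. Of the other lists, *Hexim2*, another 7SK protein gene, was past 2-fold, at 7.86 and 2.35 TPM from 25 and 10 counts (CPM ratio 2.40, interval 1.11 to 5.59). In c-Kit+ cells none of the 2 targets tested was called, 0 of them at an unadjusted p under 0.05, while DESeq2, without that filter on low counts, called 1, *Hoxa9*. *Pbx3*, the only target tested in BV+SC+ cells, was 4.40-fold lower there than in EpiSCs (adjusted p = 0.000174).

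The genes whose TPM followed *Dot1l* most closely over the 7 libraries of EpiSCs, BV+SC+ cells and unsorted Day 3 cells were *Ddx51*, *Tatdn3* and *Zfp950*, with Pearson's r of log2(TPM + 1) of 0.989, 0.983 and 0.959 among 10597 genes. All 3 were highest in EpiSC replicate 1, at 39.6, 22.8 and 140 TPM, the library in which *Dot1l* was also highest. *Tatdn3* and *Zfp950* had at most 9.66 and 12.7 TPM in the other libraries, so this 1 library carries much of their r. RSEM gave *Dot1l* its shortest effective length there, 4282 bases. By library size alone *Dot1l* had 203 CPM there, beside 181 and 175 CPM in EpiSC replicates 2 and 3. The libraries share depth and preparation by group, and no p is given.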

How the data were processed

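RNA-seq of 11 of the 36 samples of the series was used, and its ATAC-, ChIP- and single-cell data were not analysed here. The authors aligned reads with Bowtie2 and estimated expression per gene with RSEM, without pooling replicates. The submitters' processing notes give version 1.3.1 for the EpiSC, BV+SC+ and SGC libraries and no RSEM version for the sorted Day 3 libraries. The deposited files give an expected count and a TPM per gene, and the authors' TPM divides by an effective length estimated for each library. Their FPKM values, also deposited by the authors, were not used.

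Expected counts were rounded to whole numbers, filtered with filterByExpr, scaled with TMM and tested with edgeR 4.0.16 (quasi-likelihood, R 4.3.3) within each comparison, over the libraries of its groups only. P-values were adjusted by Benjamini-Hochberg over all genes tested, and a call is an adjusted p under 0.05. The edgeR fit was tested on simulated counts with known fold changes. For the SGC0946 libraries, log2 ratios of TPM with a pseudocount of 1 were taken for genes with TPM over 1 in either library, with exact intervals from SciPy 1.17.1. Intervals cover counting error only, and 3 counts were the floor. Shared transcript sequence was searched with BLAST+ 2.17.0 at 98% identity over at least 75 bases. Figures were drawn with Matplotlib 3.10.9.

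All 10 members are named, with up to 4 called genes of largest change per list and comparison, paralogs of members, 3 genes most like *Dot1l* with a mean TPM of at least 5, and genes that check the sorts. No threshold on a value entered the choice of members, but members and lists were chosen with earlier results of these data known. Alternatives were DESeq2 1.42.0, other scalings, filters, pseudocounts and thresholds, effective-length offsets, a replicate block and leaving out each library.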

Additional observations from a re-analysis of the deposited data

How the results depend on the processing

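At the threshold of the methods, P under 0.05 and a fold change over 2, the members called fell from 5 to 2 for c-Kit+ against c-Kit- cells and from 3 to 1 for BV+SC+ cells against EpiSCs, beside 24.4% and 35.0% of all genes. *Mllt6*, *Men1* and *Ell2* were called in both comparisons. With 1 library left out at a time their log2 fold changes in c-Kit+ cells were 1.36 to 1.73, -0.87 to -0.74 and 3.20 to 3.95. In BV+SC+ cells they were 1.54 to 1.90, -0.90 to -0.65 and -0.51 to -0.37. DESeq2 called 4 of 10 members in c-Kit+ cells, beside 2474 of 18880 genes, where edgeR called 4574 of 11018 genes. In BV+SC+ cells it called 3 members, as many as edgeR. The genes past 2-fold with SGC0946 went from 1373 to 271 with a pseudocount of 5, to 555 with TPM over 1 in both libraries, and to 721 and 713 with CPM without and with TMM factors. *Ell2* was not tested in the c-Kit comparison when at least 10 counts were required in every library.

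Directions turned only at members that were not called. The log2 fold change of *Dot1l* in c-Kit+ cells was -0.00 without scaling factors and -0.06 to 0.08 with a library left out, and that of *Mllt1* was -0.04 to 0.11. In BV+SC+ cells *Aff1* was 0.07 with effective-length offsets and -0.40 to 0.08 with a library left out, and *Kmt2a* was -0.06 to 0.11 with a library left out. The cause was not tested.

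Replicate numbers are shared between groups, but the deviations of same-numbered libraries correlated by 0.114 in the c-Kit libraries and by -0.0349 and 0.00367 in the others, and nothing in the labels ties them, so they were not treated as pairs. With the replicate number as a block, the same 5 of 10 members were called in c-Kit+ cells, beside 4871 of 11018 genes, a share near theirs. In BV+SC+ cells 2 members were called, and *Kmt2a* was -0.01 there.

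No member passed 2-fold with SGC0946 under any of the 6 alternatives, all of which add a pseudocount, while the plain CPM ratio of *Ell2* was 2.01. This pair has no replicate. *Mllt3*, *Aff1* and, in c-Kit- cells, *Ell2* rest on few counts.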
